A study of Sus scrofa domesticus with 12 samples.

Results

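Transcripts of 9 genes were followed through volumetric muscle loss (VML) injury of pig muscle: the actins ACTA1, ACTC1, ACTA2, ACTB and ACTG1 and the tropomyosins TPM1, TPM2, TPM3 and TPM4. They were selected by gene name, all 9 names were present, and they make up 9 of the 11506 named genes in the abundance table. RNA was sequenced from the peroneus tertius (PT) muscle, a muscle of the lower hind limb, of Yorkshire Cross pigs, and the study's methods place the harvest 12 weeks after surgery. In VML-injured limbs a block of muscle had been cut out of the middle of the PT, whereas sham-operated limbs kept theirs. The 12 libraries came from 11 pigs. There were 2 sham-operated libraries (pigs 025 and 026), 2 non-repaired libraries whose defect was left empty (pigs 017 and 023), 2 Hya-repaired libraries whose defect received hyaluronic acid (pigs 016 and 017) and 6 ECM-repaired libraries whose defect received a decellularized extracellular matrix (pigs 013, 014, 018, 021, 022 and 024). The labels call this matrix SIS, small intestinal submucosa, in all 6 limbs. The paper counts as many limbs repaired with UBM, urinary bladder matrix, as with SIS in its RNA sequencing. By those counts some of the 6 would have received UBM, but which ones cannot be told here. No genotype was altered and no drug was part of the labels. One limb of pig 017 was left without repair and the other received hyaluronic acid, so these libraries share an animal.

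Actin is the protein of thin filaments and of the microfilament cytoskeleton, and mammals make it from separate genes with nearly the same protein product. ACTA1 is the skeletal muscle form and ACTC1 the cardiac form, which developing skeletal fibres also use; ACTA2 is the smooth muscle form, also made by contractile fibroblasts, and ACTB and ACTG1 are the cytoplasmic forms of almost all cells. Tropomyosins are coiled coils that lie along the actin filament. TPM1 and TPM2 dominate in striated muscle, TPM3 supplies the slow fibre form, TPM4 is mostly cytoplasmic, and TPM1, TPM2 and TPM3 also give non-muscle transcripts by alternative splicing.

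Levels are given in TPM, a gene's share of all transcripts after correction for transcript length, on a fixed total per library. TPM after a number is this unit, whereas TPM1 to TPM4 are genes. These values are corrected for length, so they can be set side by side between genes, but they carry no read depth. They are sums per gene, so muscle and non-muscle transcripts of the same tropomyosin gene cannot be told apart. The coding sequences of the actins are very alike, and how reads shared between them were divided was not tested; the ACTC1 and ACTA2 values, low beside a very high ACTA1, are uncertain for this reason. In bulk tissue, fewer cells of a type and less RNA per cell cannot be told apart.

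The sham-operated libraries carried the defining transcripts of skeletal fibres: the 13 of 14 listed fibre markers in the table summed to between 92580.3 and 99219 TPM. In the 10 injured libraries the sum ran from 7622 to 58197 TPM. The 8 fibroblast markers summed to between 1122 and 1571 TPM in sham-operated muscle and to between 37748 and 98018 TPM after injury, with COL1A2, a chain of type I collagen, at a median of 25864 TPM. For the 6 of 7 leukocyte and macrophage markers in the table the sums were 16.4 to 24.7 and 143 to 399 TPM. The 6 endothelial markers overlapped, at 160 to 265 against 100.2 to 499.9 TPM, as did the 6 of 7 pericyte markers, at 94.1 to 189 against 77.9 to 316 TPM. Smooth muscle markers were low throughout, the 5 of 7 in the table summing to at most 172 TPM in any library, with MYOCD, the coactivator that drives the smooth muscle programme, no higher than 0.590 TPM. In VML-injured muscle 7 of the 13 fibre markers were called lower, and 8 of 8 fibroblast and 6 of 6 leukocyte markers were called higher. Of the 6 pericyte markers 2 were called higher (PDGFRB and CSPG4), as was 1 of 3 tested smooth muscle markers (SMTN). None of the 6 endothelial markers was called. Over all tested genes, 7.66% were called lower and 49.4% higher. How the calls of PDGFRB, CSPG4 and SMTN depend on single libraries is not given here. The calls of the fibre markers CKM, MYLPF and DES needed both sham-operated libraries. Leaving out either gave them log2 fold changes between -2.38 and -1.77. Among the fibre markers that were not called, MB had a log2 difference of -1.49 (limma adjusted p = 0.0950). After rescaling the libraries by trimmed means of log ratios, 2385 of the 8782 tested genes were called lower and 2610 higher. In that setting 13 of the 13 fibre markers were lower, and the 8 fibroblast and 6 leukocyte markers were still higher. Of the pericyte markers 1 was then higher and 1 lower, and of the smooth muscle and endothelial markers 1 each was lower. Their part in the changes of the actins and tropomyosins was not tested. With the values as deposited, the median of all 8782 tested genes lay 0.73 higher in VML-injured than in sham-operated muscle on the log2 scale. After rescaling, that median was 0.029.

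Differences from sham-operated muscle were tested with limma on log2(TPM + 0.5) over all 8782 genes, with p adjusted by the Benjamini-Hochberg method and a threshold of 0.05. VML-injured denotes the mean of the injured conditions, each with equal weight. All 9 genes passed the filter of at least 1 TPM in all libraries of a condition. Of the 9 genes, 4 were higher in VML-injured muscle (ACTA2, ACTB, ACTG1 and TPM4), where 49.4% of all tested genes were called higher. Another 4 were lower (ACTA1, TPM1, TPM2 and TPM3), where 7.66% of all genes were called lower. ACTC1 passed in neither direction. Since the typical gene also sat higher in the injured libraries, the value after rescaling by trimmed means is given beside each gene.

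**Figure D1:**
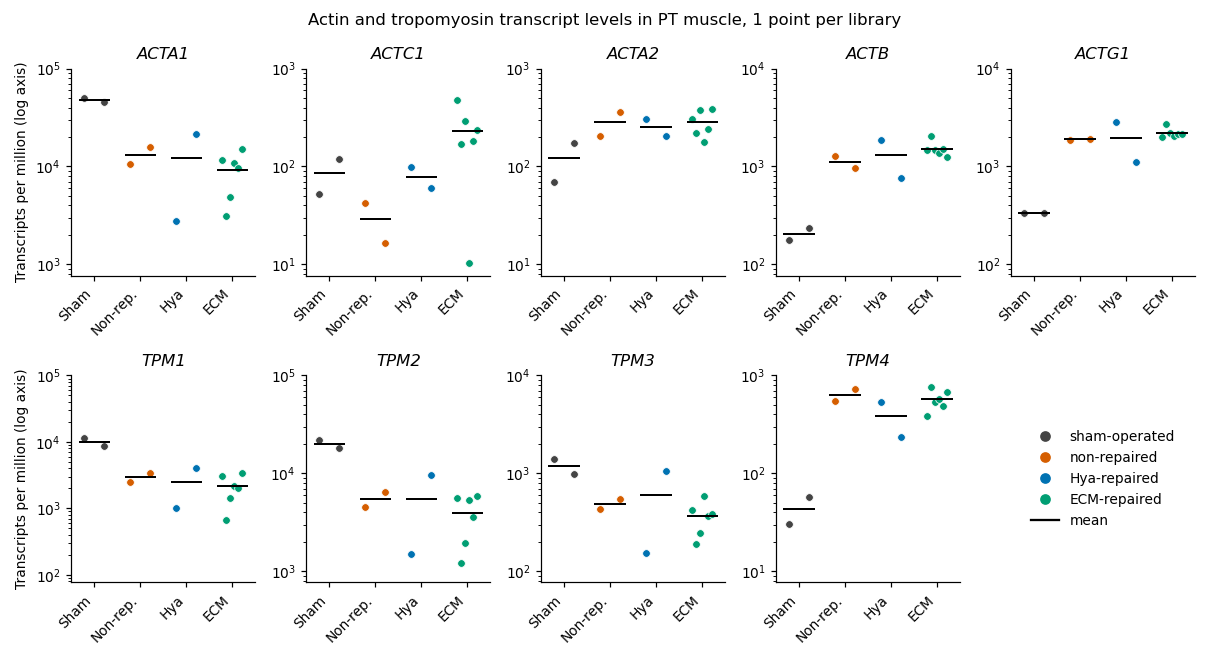
Level of each gene in TPM on a log axis, with 1 point per library, the 4 conditions along the horizontal axis and a bar at the mean. ACTA1, TPM1 and TPM2 lie below both sham-operated libraries in all 10 injured libraries, ACTA2, ACTB, ACTG1 and TPM4 lie above them in all 10, and ACTC1 is scattered on both sides.

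ACTA1, the thin filament actin of adult fibres, was measured at 50128 and 45630.3 TPM in the sham-operated libraries. The non-repaired libraries held 10572 TPM (pig 017) and 15687 TPM (pig 023), and the Hya-repaired libraries 2743 TPM (pig 016) and 21517 TPM (pig 017). Among the ECM-repaired libraries the lowest value was 3141 TPM, the median 10255 TPM and the highest 14965 TPM. All 10 injured libraries were below both sham-operated libraries, and the 2 Hya-repaired libraries marked the lowest and the highest injured value. ACTA1 fell by 2.36 on the log2 scale in VML-injured muscle (SE 0.68, adjusted p = 0.0112), which placed it 51st among the 8782 genes ordered by the size of the fall. The log2 fold change was -3.14 after rescaling (adjusted p = 0.00380). Without the sham-operated library of pig 025 the adjusted p was 0.0915 and without that of pig 026 it was 0.0611, so the call needed both, although the log2 fold change stayed between -2.86 and -1.87 whichever library was left out.

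ACTC1, the actin of heart and of developing skeletal fibres, stood at 52.2 and 119 TPM in sham-operated muscle. It measured 42.2 and 16.5 TPM in the non-repaired libraries and 97.9 and 59.8 TPM in the Hya-repaired libraries. ECM-repaired libraries ran from 10.3 TPM (pig 021) through a median of 208 TPM to 478 TPM (pig 013). In 5 injured libraries, all ECM-repaired, ACTC1 was above both sham-operated values, in 3 it was below both, and the remaining 2 lay between them. The log2 difference of VML-injured from sham-operated muscle was -0.23 (95% confidence interval -2.64 to 2.17, adjusted p = 0.867), an interval wide enough to hold a several-fold change either way, and it was -1.003 after rescaling (adjusted p = 0.456). In ECM-repaired muscle alone it was 0.91 (interval -1.57 to 3.39, adjusted p = 0.508). Without the library of pig 021 that value became 1.67 with an adjusted p of 0.0119, so 1 library decided whether ACTC1 was called higher after ECM repair. Leaving out the same library also put ACTC1 past the threshold in non-repaired muscle, as lower (log2 fold change -1.56, adjusted p 0.0449 in place of 0.357).

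ACTA2, smooth muscle actin, measured 70.2 and 175 TPM in the sham-operated libraries. Non-repaired muscle held 206 and 363 TPM and Hya-repaired muscle 302 and 206 TPM. The ECM-repaired libraries spanned 179 to 386 TPM with a median of 274 TPM. Every injured library was above both sham-operated libraries, but the lowest, at 179 TPM, was close to the sham-operated library of pig 026 at 175 TPM. ACTA2 rose by a log2 fold change of 1.26 in VML-injured muscle (SE 0.38, adjusted p = 0.0145). After rescaling this was 0.48 with an adjusted p of 0.285, and without the sham-operated library of pig 025 it was 0.60 with an adjusted p of 0.324. ACTG2, the visceral smooth muscle actin, which was not among the 9 genes, stayed low, at 2.28 and 16.1 TPM in sham-operated and 5.78 to 71.5 TPM in injured muscle (log2 difference 1.60, adjusted p = 0.115).

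ACTB, cytoplasmic beta actin, was 175 and 237 TPM in sham-operated muscle. In the non-repaired libraries it was 1272 and 970.2 TPM, and in the Hya-repaired libraries 1851 TPM (pig 016) and 767 TPM (pig 017). In ECM-repaired libraries the lowest value was 1246 TPM, the median 1468 TPM and the highest 2033 TPM. No injured library overlapped the sham-operated ones. ACTB rose by a log2 fold change of 2.62 (SE 0.32, adjusted p = 2.75e-05), 6.15-fold, and by 1.84 after rescaling (adjusted p = 0.00198).

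ACTG1, cytoplasmic gamma actin, was nearly identical in the sham-operated libraries, at 336 and 338 TPM. It measured 1865 and 1907 TPM in the non-repaired libraries and 2841 and 1110.3 TPM in the Hya-repaired libraries of pigs 016 and 017. The ECM-repaired libraries gave a lowest value of 1995 TPM, a median of 2159.7 TPM and a highest of 2729 TPM. The injured and sham-operated values did not overlap. ACTG1 rose by a log2 fold change of 2.53 (SE 0.30, adjusted p = 2.63e-05), and by 1.75 after rescaling (adjusted p = 0.00166). For each cytoplasmic actin the call held whichever single library was left out.

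TPM2, beta tropomyosin of striated muscle, was the most abundant tropomyosin in every library, at 21761 and 18169 TPM in sham-operated muscle. It measured 4504 and 6483 TPM without repair, and 1500.3 TPM (pig 016) and 9559.6 TPM (pig 017) after Hya repair. The ECM-repaired libraries ranged from 1219 TPM to 5935 TPM with a median of 4496 TPM. All 10 injured libraries were below both sham-operated ones. TPM2 fell by 2.27 on the log2 scale (SE 0.68, adjusted p = 0.0130), with -3.05 after rescaling (adjusted p = 0.00395). Leaving out the sham-operated library of pig 025 or of pig 026 took the adjusted p to 0.110 or 0.0634.

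TPM1, alpha tropomyosin, was lower than TPM2 in every library. Sham-operated libraries held 11430.0 and 8594 TPM, non-repaired libraries 2515 and 3425 TPM, and Hya-repaired libraries 997 and 4016 TPM. The ECM-repaired values ran from 670 TPM through a median of 2109 TPM to 3403 TPM. Again no injured library reached the sham-operated range. TPM1 fell by 2.15 on the log2 scale (SE 0.58, adjusted p = 0.00754), with -2.93 after rescaling (adjusted p = 0.00208). Without the sham-operated library of pig 025 the adjusted p was 0.0888.

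TPM3, whose muscle transcript serves slow fibres, was 1389 and 980.1 TPM in sham-operated muscle. It was 428 and 551 TPM in the non-repaired libraries and 155 and 1061 TPM in the Hya-repaired libraries. The ECM-repaired libraries lay between 189 and 588 TPM, with a median of 377 TPM. Here 9 of 10 injured libraries were below both sham-operated libraries, and the Hya-repaired library of pig 017 lay between the sham-operated values. TPM3 fell by 1.52 on the log2 scale (SE 0.57, adjusted p = 0.0367), with -2.29 after rescaling (adjusted p = 0.00904). The adjusted p rose to 0.237 and 0.0917 without the sham-operated library of pig 025 and of pig 026, to 0.0665 and 0.0505 without the non-repaired library of pig 017 and of pig 023, and to 0.0515 without the filter on low values.

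TPM4, the cytoplasmic tropomyosin, was 30.6 and 56.8 TPM in sham-operated muscle, against 542 and 726 TPM in non-repaired and 541 and 235 TPM in Hya-repaired muscle. ECM-repaired libraries held 388 TPM at the lowest, 557 TPM at the median and 767 TPM at the highest. The lowest injured library, the Hya-repaired limb of pig 017, was still well above both sham-operated libraries. TPM4 rose by a log2 fold change of 3.57 (SE 0.35, adjusted p = 6.49e-06), 11.9-fold, which placed it 242nd among all genes ordered by rise. After rescaling it rose by 2.80 (adjusted p = 5.89e-05), and no single library carried the call.

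Counted over the 9 genes, 4 lay above both sham-operated libraries in all 10 injured libraries, as did 49.8% of all tested genes, and 3 lay below both, as did 8.52% of all tested genes.

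**Figure D2:**
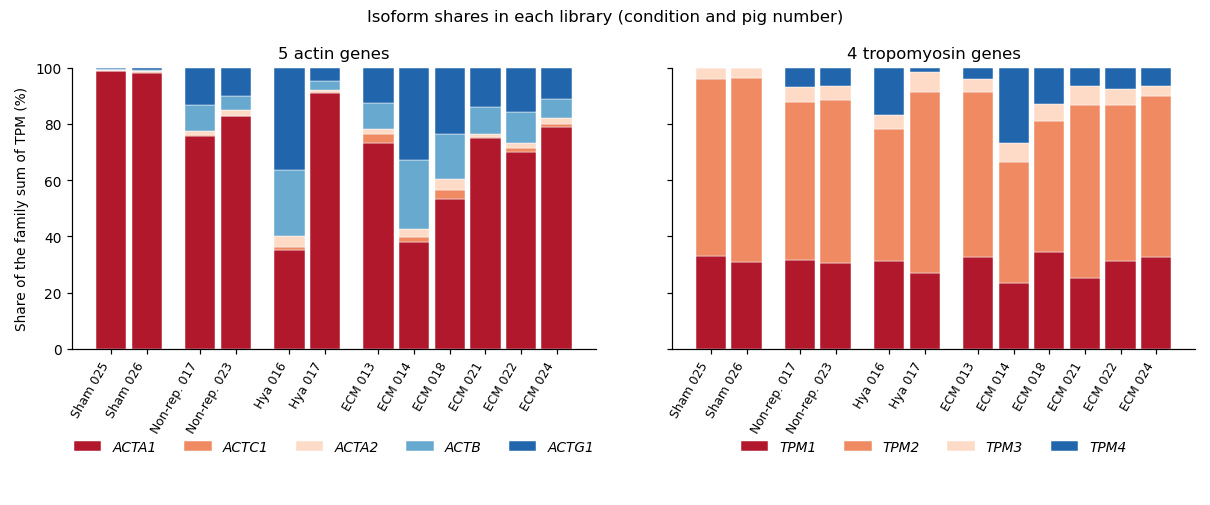
Share of each gene in the summed TPM of the 5 actins (left) and of the 4 tropomyosins (right), in percent, with 1 stacked bar per library. Cytoplasmic ACTB and ACTG1 (blues, left) and TPM4 (blue, right) are barely visible in the sham-operated bars and take up to 59.9% and 26.97% of a bar after injury.

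Isoform shares within each library do not depend on how the libraries are scaled, and are given as a description. ACTA1 made up 98.8% and 98.1% of the summed actin transcripts in sham-operated muscle. In the injured libraries its share ran from 35.0% to 90.9%, 67.3% ± 18.9 (SD, n = 10). By condition it was 79.3% ± 4.996 (SD, n = 2) without repair, 63.0% ± 39.5 (SD, n = 2) with Hya and 64.7% ± 15.9 (SD, n = 6) with ECM. The injured range did not reach the sham-operated one. ACTB and ACTG1 together held 1.01% and 1.24% in sham-operated muscle and between 7.93% and 59.9% after injury. In the Hya-repaired library of pig 016 and the ECM-repaired library of pig 014 they exceeded all other actins combined, at 59.9% and 57.4%. ACTA2 took 0.138% and 0.376% of actin transcripts in sham-operated muscle and 0.871% to 4.05% after injury, so the smooth muscle isoform remained a minor one throughout. The share of ACTC1 was at most 0.257% in sham-operated libraries and reached 3.17% in the ECM-repaired library of pig 018.

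Among tropomyosins, TPM1, TPM2 and TPM3 together made up 99.9% and 99.8% of transcripts in sham-operated muscle and 73.0% to 98.4% after injury. TPM4 supplied the rest, 0.0884% and 0.204% against 1.58% to 26.97%. Its share was 6.64% ± 0.211 (SD, n = 2) without repair, 9.26% ± 10.9 (SD, n = 2) with Hya and 10.8% ± 8.47 (SD, n = 6) with ECM. TPM1 held 30.9% and 33.0% in sham-operated and 23.5% to 34.6% in injured libraries. TPM2 held 62.9% and 65.4% against 42.8% to 64.3%. TPM3 held 3.53% and 4.01% against 3.73% to 7.14%. For all 3 the sham-operated and injured ranges overlapped. Summed actin was 1.47 and 1.67 times summed tropomyosin in sham-operated libraries and 1.59 to 2.92 times in injured libraries, ranges that overlapped. As a share of the transcripts of all named genes, the actins held 6.50% and 6.82% in sham-operated muscle and 0.973% to 3.17% after injury.

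**Figure D3:**
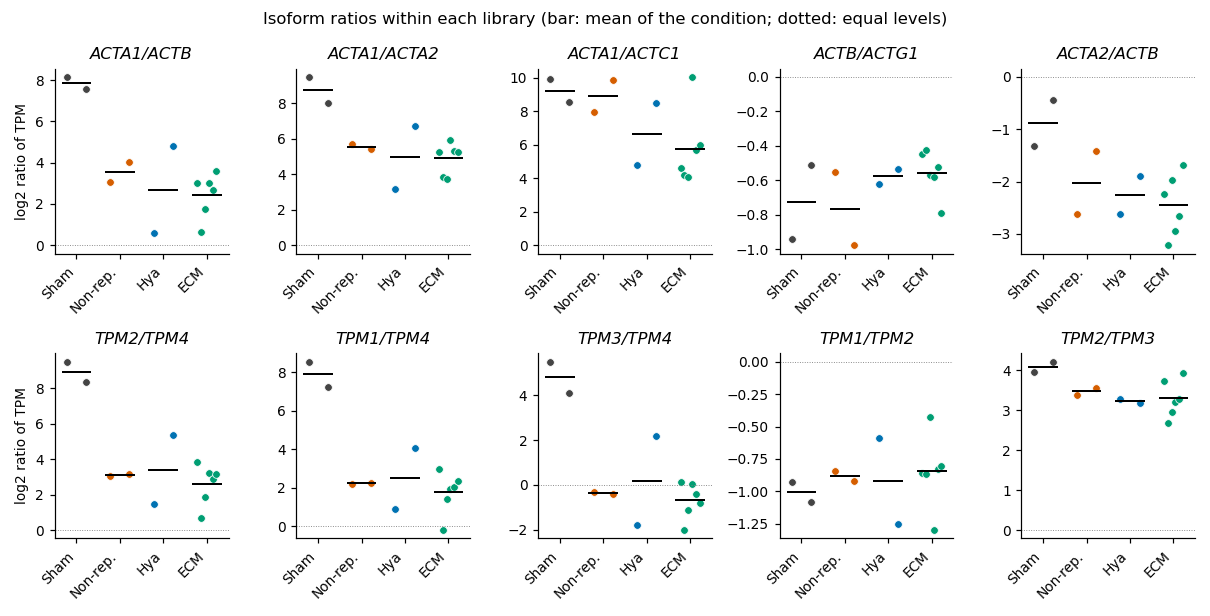
Log2 ratio of 2 isoforms within each library, 1 point per library, by condition, with a bar at the mean and a dotted line at equal levels. In 7 panels both sham-operated points lie above all 10 injured points, by little for ACTA2/ACTB and TPM2/TPM3, and ACTA1/ACTC1, ACTB/ACTG1 and TPM1/TPM2 overlap.

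Each of 10 isoform ratios was compared between the 10 injured and 2 sham-operated libraries with a two-sided exact permutation test over all 66 splits, whose smallest possible p is 0.0152. In 7 of the 10 ratios the injured libraries all lay below both sham-operated libraries, and each of these reached p = 0.0152 in the exact permutation test (0.0216 adjusted over the 10 ratios). For ACTA1/ACTB, ACTA1/ACTA2, TPM2/TPM4 and TPM1/TPM4 this separation was fixed by the levels of the single genes, which did not overlap. That of TPM3/TPM4 was fixed by the levels as well. TPM3 was at most 1061 and TPM4 at least 235 TPM after injury, against at least 980.1 and at most 56.8 TPM in sham-operated muscle. For all of these ratios the test adds nothing to the levels of the single genes. How many other gene pairs separate was not computed. The skeletal-to-cytoplasmic ratio ACTA1/ACTB was 286 and 192 in sham-operated muscle and 1.48 to 28.1 after injury, a log2 difference of -5.17. The skeletal-to-smooth ratio ACTA1/ACTA2 was 714 and 261 against 9.08 to 104, a log2 difference of -3.72. The smooth-to-cytoplasmic ratio ACTA2/ACTB also fell, from 0.737 and 0.400 to between 0.108 and 0.374, by 1.45 on the log2 scale. Relative to smooth muscle actin, the skeletal isoform was lower and the cytoplasmic isoform higher after injury.

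Among the tropomyosin ratios, TPM2/TPM4 was 711 and 320.1 in sham-operated and 1.59 to 40.6 in injured muscle, a log2 difference of -6.03. TPM1/TPM4 differed by -5.90 and TPM3/TPM4 by -5.26 on the log2 scale, and in the ECM-repaired library of pig 014 TPM4 exceeded TPM1, with a TPM1/TPM4 ratio of 0.873. TPM2/TPM3, a ratio of gene sums in which muscle and non-muscle transcripts are not separated, differed by -0.77. The other 3 ratios did not pass the exact permutation test. ACTA1/ACTC1 had a log2 difference of -2.66 (p = 0.182, exact permutation test), with 8 of 10 injured libraries below both sham-operated ones. ACTB/ACTG1 differed by 0.12 (p = 0.470, exact permutation test) and TPM1/TPM2 by 0.14 (p = 0.515, exact permutation test). ACTG1 exceeded ACTB in all libraries, 1.34 to 1.97 times.

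**Figure D4:**
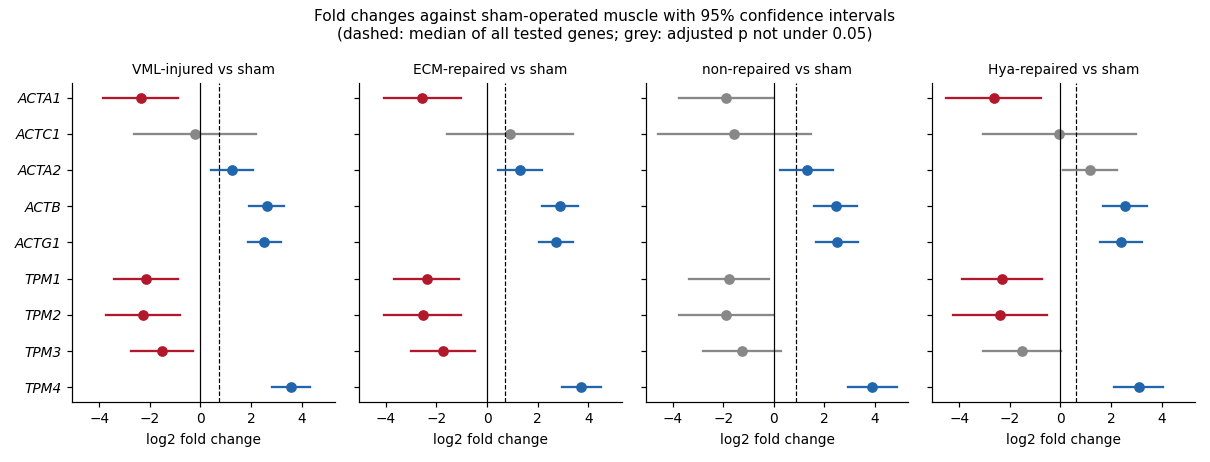
Log2 fold change of each gene against sham-operated muscle with its 95% confidence interval from limma, in 4 panels for VML-injured, ECM-repaired, non-repaired and Hya-repaired muscle, with the median of all tested genes dashed. Blue marks genes called higher, red genes called lower and grey genes that did not pass; ACTB, ACTG1 and TPM4 are blue in every panel, while the red genes of the ECM panel are grey in the non-repaired panel.

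Each injured condition was then set against sham-operated muscle. The comparisons share the 2 sham-operated libraries and are not independent of one another. In ECM-repaired muscle 4 of the 9 genes were higher and 4 lower, where 48% and 10% of all tested genes were called. The 4 higher genes included ACTA2, which did not pass after rescaling (log2 fold change 0.54, adjusted p = 0.238). ACTA1 fell by 2.56 on the log2 scale (SE 0.70, adjusted p = 0.00822) and TPM4 rose by 3.73 (SE 0.36, adjusted p = 5.44e-06). Without the sham-operated library of pig 025, ACTA1, ACTA2, TPM1, TPM2 and TPM3 no longer passed and 3 genes were called. TPM3 also failed without that of pig 026 (adjusted p = 0.0620). In Hya-repaired muscle 3 genes were higher (ACTB, ACTG1 and TPM4) and 3 lower (ACTA1, TPM1 and TPM2), where 33.9% and 3.76% of all genes were called. The Hya-repaired falls depended on the library of pig 016. Without it ACTA1 had a log2 fold change of -1.15 (adjusted p = 0.395) in place of -2.64, and without the Hya-repaired library of pig 017 it had -4.12. TPM3, with a log2 difference of -1.52 in Hya-repaired muscle (adjusted p = 0.109), passed without the library of pig 017 (-2.91, adjusted p = 0.00164) and after rescaling (-2.15, adjusted p = 0.0476). The falls of ACTA1, TPM1 and TPM2 also ended without either sham-operated library, and that of TPM2 without either non-repaired library or the ECM-repaired library of pig 022 (adjusted p 0.0572 to 0.0576). ACTA2 passed in Hya-repaired muscle only without the sham-operated library of pig 026 (adjusted p 0.0210 in place of 0.0733).

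In non-repaired muscle 4 genes were higher (ACTA2, ACTB, ACTG1 and TPM4) and none lower, where 45.1% and 1.18% of all genes were called. ACTA1, TPM1, TPM2 and TPM3 pointed down without passing. ACTA1 had a log2 difference of -1.89 (95% confidence interval -3.76 to -0.023, adjusted p = 0.0877), TPM1 of -1.76 (adjusted p = 0.0647), TPM2 of -1.88 (adjusted p = 0.0871) and TPM3 of -1.26 (adjusted p = 0.157). After rescaling, where 1746 of the 8782 tested genes were called lower, all 4 passed, with adjusted p between 0.0173 and 0.0424. They passed as well when only the non-repaired and sham-operated libraries were fitted, with adjusted p between 0.00015 and 0.00251. In that fit 4886 of the 8782 tested genes were called higher and 694 lower, against 3960 and 104 with all libraries. The 4 genes also passed when either Hya-repaired library was left out, where more of all tested genes were likewise called lower. TPM1 alone also passed without the ECM-repaired library of pig 014 (adjusted p = 0.0283). ACTA2 passed in non-repaired muscle as deposited (adjusted p = 0.0427) and not after rescaling (adjusted p = 0.565). It also failed without the sham-operated library of pig 025, the non-repaired library of pig 023 or the ECM-repaired library of pig 013 or 022 (adjusted p 0.0535 to 0.366), and when only the non-repaired and sham-operated libraries were fitted (adjusted p = 0.0517).

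Repair was compared among the injured conditions. None of the 9 genes differed between ECM-repaired muscle and the mean of the injured conditions without ECM, between ECM-repaired and non-repaired, between ECM-repaired and Hya-repaired, or between Hya-repaired and non-repaired muscle. In limma 0% of all tested genes were called in each of these 4 comparisons. At an unadjusted p under 0.05 there were 114, 71, 206 and 196 of the 8782 genes, and 0 of the 9. The intervals leave room for sizeable differences. For ECM-repaired against injured without ECM, the log2 difference was -0.30 for ACTA1 (95% confidence interval -1.50 to 0.91), 0.066 for ACTA2 (-0.61 to 0.74), 0.38 for ACTB (-0.17 to 0.94) and 0.24 for TPM4 (-0.38 to 0.85). That for ACTC1 was 1.71 (-0.25 to 3.67), with an unadjusted p of 0.0805, the lowest of the 9 genes. Leaving out the Hya-repaired library of pig 017 turned the sign for ACTA1, to 0.45.

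The ratios gave the same count. None of the 10 isoform ratios passed the exact permutation test over 210 splits between the 6 ECM-repaired and the 4 other injured libraries. The lowest p was 0.186 in the exact permutation test, for ACTA1/ACTC1, with a log2 difference of -2.01. Without the ECM-repaired library of pig 021, whose ACTA1/ACTC1 ratio was 1063 against 16.8 to 64.0 in the other 5, the difference was -2.87 (p = 0.0317, exact permutation test). ACTA1/ACTB differed by -0.68 (p = 0.452, exact permutation test) and TPM2/TPM4 by -0.65 (p = 0.495, exact permutation test).

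By mean TPM, sham-operated muscle stood first for ACTA1, TPM1, TPM2 and TPM3 and last for ACTA2, ACTB, ACTG1 and TPM4. Neighbouring injured conditions in these orders did not differ beyond their spread for any of the 9 genes in limma. In pig 017, the 1 animal with 2 injured limbs in the table, the Hya-repaired limb held 2.04 times the ACTA1 of the non-repaired limb, 2.12 times its TPM2 and 2.48 times its TPM3. It held 0.603 times the ACTB, 0.595 times the ACTG1 and 0.434 times the TPM4, and ACTA2 was 206 TPM in both limbs.

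**Figure D5:**
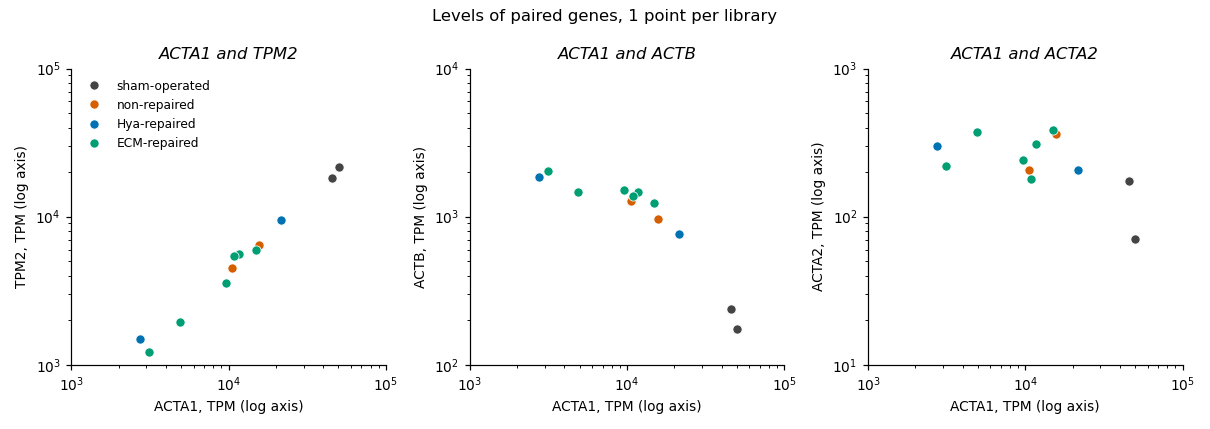
TPM2, ACTB and ACTA2 against ACTA1 in each library, all in TPM on log axes, with 1 point per library coloured by condition. Over the 10 injured libraries TPM2 climbs with ACTA1 (r = 0.984), ACTB declines (r = -0.871) and ACTA2 shows no slope (r = -0.054).

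The injured libraries differed widely from each other in ACTA1, by 7.84-fold between extremes, and the other genes were ordered along with it to different degrees. Correlations of log2(TPM + 0.5) were computed for all 36 pairs of the 9 genes over the 10 injured libraries, 2 of which share pig 017, with 100000 permutations per p. The sham-operated libraries stand apart and were left out. ACTA1 and TPM2 had Pearson's r = 0.984 (permutation p = 1e-05, the smallest these permutations can give, adjusted 0.00018) and Spearman's rho = 0.988 (permutation p = 2e-05, adjusted 0.00036). Without the 2 libraries farthest from the median of ACTA1, r was 0.980. For ACTA1 and TPM1 r was 0.966 (permutation p = 3e-05, adjusted 0.00036), rho 0.976 (permutation p = 3e-05, adjusted 0.00036) and r without those 2 libraries 0.958. The cytoplasmic isoform ran the other way. ACTA1 and ACTB had r = -0.871 (permutation p = 0.00084, adjusted 0.00252) and rho = -0.927 (permutation p = 0.0004, adjusted 0.0024), with r = -0.774 without the 2 farthest libraries.

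ACTA2 followed neither group. Its r with ACTA1 was -0.054 (permutation p = 0.881, adjusted 0.907), its rho 0.0061 (permutation p = 1.0, adjusted 1.0) and r without the 2 farthest libraries -0.21. TPM4 was only loosely tied to the loss of the skeletal isoform, with r = -0.42 to ACTA1 (permutation p = 0.225, adjusted 0.352), rho = -0.15 (permutation p = 0.682, adjusted 0.819) and r = -0.32 without the 2 farthest libraries. All values of a library share its scaling, and no batch is given in the labels, so none could be tested within a batch.

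The 5 genes whose levels were most alike over the injured libraries, by Pearson's r over 10 libraries and with no test, differed between the isoforms. For TPM2 they were led by MYOT (r = 0.996), the Z-disc protein myotilin, and included LDB3, another Z-disc gene, at 0.987. For ACTA1 they were ENO3 (0.977), the muscle enolase, with MYOT (0.976) and ANK1, PRKAA2 and PKIA at 0.973 to 0.974. TPM3 was most like TNNT1 (0.983) and TNNI1 (0.982), the slow troponin T and troponin I. ACTC1 was most like CHRNA1 (0.930), a subunit of the muscle acetylcholine receptor, and TNNT2 (0.926), the cardiac troponin T that developing skeletal muscle also makes. ACTB was followed most closely by MAGED1 (0.973) and by FSCN1 (0.969), the actin bundling protein fascin. TPM4 was followed by IKBIP (0.974), GNB5, SEC23A and RLIM, and in last place by ACTR3 (0.960), a subunit of the Arp2/3 complex. For ACTA2 the likest were NMB (0.897), GSTM3, ANXA7, SCIN and JUNB, down to 0.866.

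Partners of these proteins were counted in the same limma fit, from lists of pathway genes. Of all tested genes 49.4% were called higher and 7.66% lower, with a median log2 difference of 0.73. After rescaling by trimmed means, 2610 of the 8782 tested genes were called higher and 2385 lower. Of 16 tested genes of the sarcomeric thin filament, 11 were lower and 0 higher in VML-injured muscle, with a median log2 difference of -2.10. TNNI2, fast troponin I, fell by 2.16 (SE 0.54, adjusted p = 0.00490) and TMOD1, which caps the pointed end of the filament, by 1.79 (SE 0.49, adjusted p = 0.00867). The fast troponins TNNT3 and TNNC2 fell by 2.26 and 2.19 on the log2 scale, and slow TNNI1 by 1.99 (adjusted p = 0.0460). The calls of TMOD1, TNNT3, TNNC2 and TNNI1 each ended without either sham-operated library (adjusted p 0.0557 to 0.194). That of TNNI1 also ended without either non-repaired library, without the ECM-repaired library of pig 018, 022 or 024, and without the filter on low values (adjusted p 0.0507 to 0.0762). Of the 5 that did not pass, TNNT2, cardiac troponin T, named after its value was seen, had a log2 difference of 2.10 (adjusted p = 0.122).

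Of 26 tested genes of actin polymerisation and turnover, 22 were higher and 1 lower, with a median of 2.10, and 18 were higher and 2 lower after rescaling. CFL1, the non-muscle cofilin that severs filaments, rose by 3.36 (SE 0.33, adjusted p = 6.29e-06), whereas the muscle cofilin CFL2, of the thin filament list and likewise named afterwards, fell by 1.36 on the log2 scale (adjusted p = 0.00981). PFN1, which loads actin monomers, rose by 2.26, and TMSB4X and TMSB10, thymosins that hold monomers in reserve, rose by 2.32 and 3.57. CAPG, a capping protein of macrophages and other cells, held 5.41 ± 2.81 TPM (SD, n = 2) in sham-operated muscle. In injured muscle it held 230 ± 91.4 TPM (SD, n = 10), and the log2 fold change was 5.19. ARPC5, a subunit of the Arp2/3 complex, rose by 3.58 (SE 0.29). The 1 lower gene was CAPZA2, a subunit of the capping protein that also sits in the Z-disc. It fell by 0.99 on the log2 scale and was named after its value was seen. How the calls of CFL2 and CAPZA2 depend on single libraries is not given here.

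The 20 tested genes of smooth muscle and stress fibres were mixed, with 11 higher and 3 lower and a median of 1.32, and 8 higher and 5 lower after rescaling. As deposited, the part called higher was near the 49.4% of all tested genes. The 3 lower genes, named after their values were seen, were ACTN4, PDLIM7 and SYNPO2, with log2 fold changes of -1.60, -1.22 and -2.14. How the calls of these 3 depend on single libraries is not given here. TAGLN, the actin-binding transgelin, rose by 2.42 (SE 0.35, adjusted p = 0.000118), and the broadly expressed forms TAGLN2 and CNN2 by 3.04 and 2.73. CALD1, caldesmon, rose by 2.72. MYL9, a regulatory light chain, passed as deposited (log2 fold change 1.10, adjusted p = 0.0232) and neither after rescaling (0.33, adjusted p = 0.486) nor without the sham-operated library of pig 025 (0.24, adjusted p = 0.626). CNN1, the calponin of differentiated smooth muscle, had a log2 difference of -0.095 (adjusted p = 0.805) as deposited and was called lower after rescaling (-0.86, adjusted p = 0.0360). Genes that serum response factor and its cofactors act through were covered by 5 tested genes. Of these, 2 were higher and 1 lower, where 49.4% and 7.66% of all tested genes were called. FHL2 rose by 3.02 (adjusted p = 6.09e-05), FHL1 fell by 1.49 (adjusted p = 0.0160), ELK1 rose by 0.78 (adjusted p = 0.0458) as deposited, with 0.069 (adjusted p = 0.781) after rescaling, and MKL1 had a log2 difference of 0.11 (adjusted p = 0.827). The call of FHL1 ended without either sham-operated library (adjusted p = 0.0868 and 0.0948), and that of ELK1 without any of 8 single libraries (adjusted p 0.0514 to 0.504).

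Of 5 tested markers of developing fibres, 1 was higher and 2 were lower, where 49.4% and 7.66% of all tested genes were called. NCAM1, an adhesion molecule of muscle precursors and denervated fibres, rose by 1.58 (SE 0.44, adjusted p = 0.00899). MYOD1, a transcription factor of the muscle lineage, fell by 1.88 on the log2 scale (SE 0.52, adjusted p = 0.00874). CDH15, the cadherin of muscle precursors, named after its value was seen, fell by 1.70. How the calls of NCAM1, MYOD1 and CDH15 depend on single libraries is not given here. CHRNA1, the gene most like ACTC1 over the injured libraries, had a log2 difference of 0.094 (adjusted p = 0.948), and MYL4, the embryonic and atrial light chain, one of 0.13 (adjusted p = 0.822).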

How the data were processed

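The deposited table holds TPM per gene, which the authors made with kallisto by pseudoalignment of paired-end reads; how transcripts were summed to genes is not given in the sources used here. Read depth cannot be recovered from TPM, so no counting interval is given and precision rests on the number of limbs. The submitters' processing notes also name DESeq, which was not used here. Named genes covered 71.5 to 82.7% of a library's TPM, 239 genes were at 0 throughout, 21 names had become dates, and 618 of 1833 LOC names were given a symbol from RefSeq.

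The 8782 genes that reached 1 TPM in each library of any condition were fitted with limma 3.58.1 in R 4.3.3 (trend and robust) on log2(TPM + 0.5), with all 12 libraries and 1 coefficient per condition. By the labels only pig 017 has libraries in more than 1 condition, and no block on pig was fitted. Python 3.11.15 with numpy 2.4.6 ran the permutation tests. The code was tested on simulated data. Alternatives were other library scalings, pseudocounts, filters, limma options, fewer libraries and no pig 017. The genes named were drawn from the 9, the first 4 of each list in the table with the 2 of smallest p, and the 5 likest to a gene. Any others are marked as named after their values were seen. Members and lists were chosen with earlier results of these data known. SIS and UBM matrices were not separated, because the labels name SIS alone for the 6 limbs although the paper describes both. Genes that could not be found by symbol, such as MYH11, MYH3 and SRF, were not analysed here.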

Additional observations from a re-analysis of the deposited data

Results flagged for a closer look

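Within the 6 ECM-repaired libraries, 40 quantities were examined for a library far from the rest, by Dixon's ratio of the gap to the range at the 95% level, which chance exceeds in about 1 of 20 groups; 4 were past it. The ECM-repaired library of pig 014 was the highest for ACTB (2033 TPM, gap 0.664 of the range), for ACTG1 (2729 TPM, 0.746 of the range) and for their sum (4763 TPM, 0.797 of the range), and these are not independent of one another. The ECM-repaired library of pig 021 had the highest log2 ACTA1/ACTC1 ratio (10.1, gap 0.678 of the range).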

How the results depend on the processing

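The limits are the 2 sham-operated libraries, the unknown depth and the higher level of the typical gene after injury. ACTB, ACTG1 and TPM4 were called in VML-injured muscle under every alternative run. In non-repaired muscle 7 of the 9 genes were called after rescaling by trimmed means and 7 after rescaling by the median of ratios. Of all 8782 tested genes there, 2028 were higher and 1746 lower by trimmed means, and 1941 and 1833 by the median of ratios. Fitting only the compared libraries also called 7, where 4886 of all tested genes were higher and 694 lower. For VML-injured muscle that choice is the full fit and gives no other value. In Hya-repaired muscle 3 were called with only the compared libraries, where 1733 of all tested genes were higher and 218 lower. Without the sham-operated library of pig 025 fewer of all tested genes were called, higher and lower. That held in VML-injured muscle and in each injured condition, so a lower count there was not particular to the 9 genes. Leaving out 1 library at a time gave 3 to 8 called genes in VML-injured, 3 to 9 in ECM-repaired, 3 to 8 in non-repaired and 3 to 7 in Hya-repaired muscle, with the lowest count of each reached without the sham-operated library of pig 025; 3 were also reached without the Hya-repaired library of pig 016 in Hya-repaired muscle, and without the non-repaired library of pig 023 or the ECM-repaired library of pig 013 or 022 in non-repaired muscle. Leaving out 1 injured library kept 7 ratios past the test against sham-operated muscle; leaving out a sham-operated library allows no p under 0.0909. Between ECM-repaired and other injured libraries 0 to 1 ratios passed. Without the filter on low values TPM3, TNNI1 and ELK1 in VML-injured, ACTA2 in non-repaired and TPM2 in Hya-repaired muscle did not pass (adjusted p 0.0515 to 0.0624). No isoform share moved by more than its SD.

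Without both libraries of pig 017, log2 differences reversed for ACTC1 in Hya-repaired muscle (0.31) and, between ECM-repaired and other injured muscle, for ACTA1 (0.30), ACTA2 (-0.27), ACTG1 (-0.081), TPM1 (0.030), TPM2 (0.12), TPM3 (0.23), TPM4 (-0.17), ACTA1/ACTB (0.14) and TPM2/TPM4 (0.29); none was called either way. MKL1 reversed after rescaling, to -0.61 by trimmed means and -0.65 by the median of ratios (adjusted p = 0.0455). Leaving out 1 library, these values changed sign: against sham-operated muscle, ACTC1 ranged from -0.82 to 0.36 in VML-injured and -0.64 to 0.55 in Hya-repaired muscle, ACTB/ACTG1 from -0.090 to 0.34, CNN1 from -0.43 to 0.24 and MKL1 from -0.14 to 0.35. Between ECM-repaired and other injured muscle, ACTA1 ranged from -1.04 to 0.45, ACTA2 from -0.14 to 0.27, ACTG1 from -0.073 to 0.60, TPM1 from -0.86 to 0.14, TPM2 from -1.08 to 0.25, TPM3 from -1.06 to 0.32, TPM4 from -0.063 to 0.54 and TPM2/TPM4 from -1.25 to 0.043. The cause was not tested. No paired analysis was possible because pig 017 alone has libraries in more than 1 condition, so that no pair of conditions shares 2 animals.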
